A study of Mus musculus with 8 samples.

Results

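The Immunity-related GTPases are a family of interferon-induced proteins that bind GTP. The 7 genes described here, Irgm1, Irgm2, Igtp, Iigp1, Tgtp1, Tgtp2 and Ifi47, were taken by symbol from the 27179 genes of the expression table. That rule uses no measured value, but the members were chosen with earlier results of these data known. RNA sequencing compared 8 whole tumors grown from C26 mouse colon carcinoma cells of a cachexia-inducing line, called cxC26, to ask how disruption of the Il6 gene in the tumor cells changes gene expression. The 4 cxC26 scr tumors came from cells that carry Cas9 and a scrambled guide RNA as a control, and the 4 cxC26 IL6KOs1 tumors from 1 single-cell subclone of Il6 knockout cells. Both kinds of cells had been through lentiviral CRISPR/Cas9 delivery and grew under the skin of adult male CD2F1 mice, whose own Il6 gene was intact, until the mice had lost over 15% of body weight. The study implanted more of the knockout cells and collected their tumors later, so that genotype, subclone, cell dose and tumor age cannot be told apart.

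In mice, signalling from the IFN-γ receptor acts through GAS elements and, with interferon regulatory factors, through ISRE elements to turn on Immunity-related GTPase genes in many cell types. The GKS proteins, among them Iigp1 (Irga6), Tgtp1 and Tgtp2 (Irgb6) and Ifi47 (Irgd), load onto the vacuoles of parasites such as Toxoplasma and help to disrupt them. The GMS proteins Irgm1, Irgm2 and Igtp (Irgm3) sit on the cell's own membranes and hold the GKS proteins in their inactive state there.

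The sequence just upstream of these genes is shown as a description, and its part in the members' values was not tested. Promoters of 6 of the 7 members were matched in RefSeq (GRCm38.p6), and each line gives the 100 bases before the annotated start, 5′ to 3′ on the gene's strand. Capitals mark matches on either strand to the core of an interferon-stimulated response element (ISRE), GAAANNGAAA, or to a gamma-activated sequence (GAS), TTCNNNGAA.
Irgm1, chr11:48871421-48871520, minus strand: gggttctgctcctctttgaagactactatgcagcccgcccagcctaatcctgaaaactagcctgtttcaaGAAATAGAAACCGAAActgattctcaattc
Igtp, chr11:58199456-58199555, plus strand: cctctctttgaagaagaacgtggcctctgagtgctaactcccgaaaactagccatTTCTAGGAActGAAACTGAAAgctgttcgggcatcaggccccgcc
Irgm2, chr11:58214877-58214976, plus strand: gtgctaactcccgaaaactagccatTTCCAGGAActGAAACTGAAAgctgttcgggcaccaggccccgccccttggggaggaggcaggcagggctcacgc
Tgtp1, chr11:48992247-48992346, minus strand: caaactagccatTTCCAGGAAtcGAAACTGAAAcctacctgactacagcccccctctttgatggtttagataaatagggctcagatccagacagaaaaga
Tgtp2, chr11:49064213-49064312, minus strand: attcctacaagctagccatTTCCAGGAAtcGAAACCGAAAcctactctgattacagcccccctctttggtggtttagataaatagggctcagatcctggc

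Counting the base before the start as -1, the GAS letters lay at -45 to -37 in Igtp, -75 to -67 in Irgm2, -88 to -80 in Tgtp1 and -81 to -73 in Tgtp2. In all 4 of these promoters the ISRE letters followed after 2 bases. Irgm1 held a pair of overlapping ISRE matches, at -30 to -21 and -24 to -15, and no GAS match. No match to either motif was found in the 300-base window of Ifi47. This window lies at the outermost start of the gene's annotated span (49076587 to 49096987), and any start farther inside was not searched. Among the 32851 promoters of the same length in the table, 3.44% held the ISRE core, 8.3% held the GAS letters and 0.45% held both. The GAS and ISRE letters at the spacing of 2 bases, a search chosen after these sequences had been seen, occurred in 5 of the 32851 promoters (0.0152%), those of Igtp, Irgm2, Tgtp1, Tgtp2 and Gm12185. The members are related by duplication: the printed stretches of Igtp and Irgm2 share a run of 29 bases, and those of Tgtp1 and Tgtp2 one of 27. A match is a string of letters and not a measured binding site.

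The 6 members with a printed position lie on chromosome 11 of GRCm38.p6, in 2 places. Irgm1 (48865245 to 48871420), Tgtp1 (48985329 to 48992246), Tgtp2 (49057196 to 49064212) and Ifi47 (49076587 to 49096987) are neighbours. Igtp (58199556 to 58207592) and Irgm2 (58214977 to 58222783) lie next to each other farther along.

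The tumors' libraries held 14158989 to 17048062 reads on genes in the cxC26 scr group and 14222772 to 16232176 in the cxC26 IL6KOs1 group. Values below are log2 CPM, the log2 of a gene's reads scaled to the tumor's library size (CPM). The targeted gene followed the labels: Il6 had 356, 326, 376 and 438 reads in cxC26 scr tumors 1 to 4 and 64, 56, 86 and 59 in cxC26 IL6KOs1 tumors 1 to 4, a log2 fold change of -2.45 ± 0.16 (SE, limma adjusted p = 1.76e-06). The source of the reads left in the knockout tumors was not tested. Macrophage and leukocyte genes were well expressed in all 8 tumors. Of 5 epithelial markers, 2 were tested and both were called higher in the cxC26 IL6KOs1 tumors, beside 19.1% of all tested genes. Krt18 had 23, 30, 24 and 21 reads in the controls and 282, 268, 219 and 140 in the knockout tumors (log2 fold change 3.20, limma adjusted p = 3.02e-06). Cdh1 was at a log2 fold change of 1.46 (limma adjusted p = 0.00251). Epcam, Krt8 and Krt19 did not pass the filter on low values, and Krt19 had 1 read in each of 2 tumors and none in the others.

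cxC26 IL6KOs1 tumor 1 stood apart from the other tumors of its group in the members. Its 7 member genes summed to 629 CPM, against 92.9, 96.5 and 118 CPM in cxC26 IL6KOs1 tumors 2 to 4 and 55.0, 47.0, 41.5 and 42.1 CPM in cxC26 scr tumors 1 to 4. The sums of the groups did not overlap, with or without that tumor. Results are therefore given with all 8 tumors and without it. In whole tumors, more cells that express a gene and more RNA of it per cell cannot be told apart.

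Of the 7 members, 6 passed the filter of at least 1 CPM in at least 4 tumors, and all 6 of these were higher in the cxC26 IL6KOs1 tumors at a limma adjusted p under 0.05, with a median log2 fold change of 1.65. Tgtp2, counted among the 6, exceeded 1 CPM in only 1 control tumor and passed the filter through the knockout tumors. Across the 13262 genes tested, 19.1% were called higher and 20.7% lower, and the median log2 fold change was -0.003. In each of the 6, every cxC26 IL6KOs1 tumor was above every cxC26 scr tumor, which held for 17.8% of all tested genes. Without cxC26 IL6KOs1 tumor 1, all 6 were again called higher, beside 18.3% of all tested genes, and their median log2 fold change was 1.11. With no filter on low values, 3 of the 7 were called, Irgm1, Tgtp2 and Ifi47, beside 7.77% of the 27179 genes. The sizes and their 95% intervals are drawn in the plot of fold changes.

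**Figure D1:**
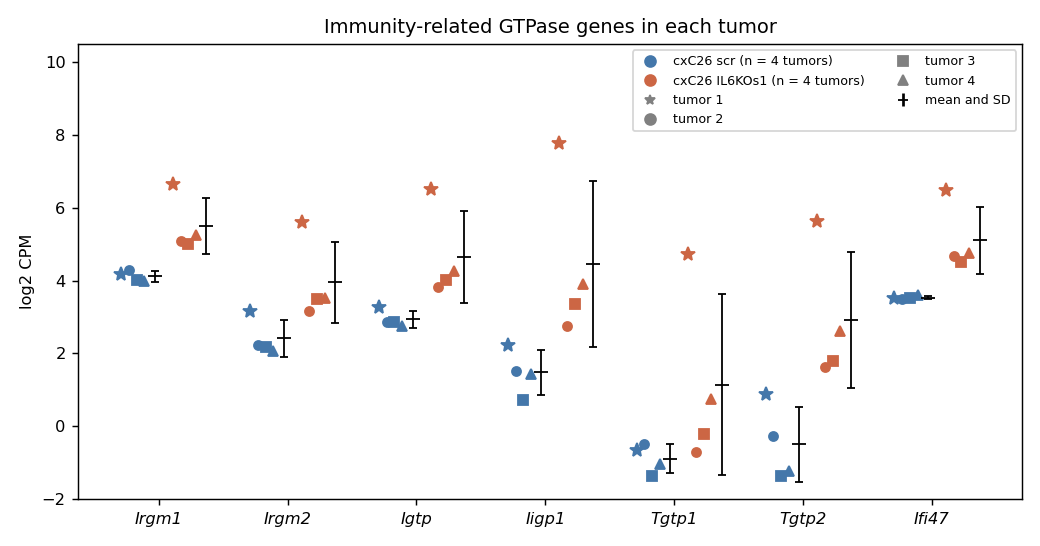
Level of the 7 members in each tumor, in log2 CPM, with cxC26 scr in blue and cxC26 IL6KOs1 in orange, 1 symbol per tumor number and the mean and SD (n = 4) in black. The star of cxC26 IL6KOs1 tumor 1 is the highest point of every gene, from 4.74 in Tgtp1 to 7.79 in Iigp1. The groups overlap in Tgtp1 only.

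The GMS regulators come first. Irgm1, which protects host membranes and is required for resistance to mycobacteria, was at 4.18, 4.29, 4.01 and 3.98 log2 CPM in cxC26 scr tumors 1 to 4 and at 6.66, 5.09, 4.99 and 5.24 in cxC26 IL6KOs1 tumors 1 to 4. The control tumors lay close together and all below the knockout tumors. The group means were 4.12 ± 0.15 and 5.50 ± 0.78 (SD, n = 4), a log2 fold change of 1.38 ± 0.30 (SE, limma adjusted p = 0.00354). Without cxC26 IL6KOs1 tumor 1 it was 0.99 (limma adjusted p = 9.0e-05).

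Igtp, the GMS protein found on the endoplasmic reticulum and lipid droplets, had 3.27, 2.85, 2.85 and 2.75 log2 CPM in the cxC26 scr tumors and 6.52, 3.81, 4.01 and 4.27 in the cxC26 IL6KOs1 tumors. The gap between the highest control and the lowest knockout tumor was smaller than that between cxC26 IL6KOs1 tumor 1 and the rest of its group. The log2 fold change was 1.72 ± 0.47 (SE, limma adjusted p = 0.0131), and 1.10 without that tumor (limma adjusted p = 0.000488).

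Irgm2, the GMS protein of the Golgi, had 3.16, 2.24, 2.18 and 2.07 log2 CPM in the cxC26 scr tumors and 5.61, 3.17, 3.49 and 3.52 in the cxC26 IL6KOs1 tumors. Here cxC26 scr tumor 1 stood close to the lower knockout tumors, at 149 reads against 124 in cxC26 IL6KOs1 tumor 2, whose library was smaller. The log2 fold change was 1.53 ± 0.46 (SE, limma adjusted p = 0.0195), and 0.98 without cxC26 IL6KOs1 tumor 1 (limma adjusted p = 0.00898). Leaving out cxC26 scr tumor 3 or 4 gave 1.46 and 1.42, with limma adjusted p = 0.0520 and 0.0548.

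Among the GKS effectors, Ifi47 varied least in the controls, at 3.51, 3.50, 3.51 and 3.59 log2 CPM, and was at 6.49, 4.68, 4.52 and 4.76 in the cxC26 IL6KOs1 tumors. The log2 fold change was 1.58 ± 0.34 (SE, limma adjusted p = 0.00375), and 1.13 without cxC26 IL6KOs1 tumor 1 (limma adjusted p = 3.3e-05). Of the exon bases of Ifi47, 4.3% overlap Gm12188 on the opposite strand and 4.5% overlap Olfr56, and the library kit does not mark strand.

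Iigp1, an effector that assembles on the parasite vacuole, had 77, 46, 23 and 41 reads in the 4 controls and 3602, 92, 162 and 217 in the cxC26 IL6KOs1 tumors. On the log2 CPM scale these were 2.22, 1.52, 0.72 and 1.43 against 7.79, 2.74, 3.37 and 3.91. The knockout tumors were all above the controls, and tumor 1 of that group was far above the other 3. The log2 fold change was 2.98 ± 0.86 (SE, limma adjusted p = 0.0164), and 1.86 without that tumor (limma adjusted p = 0.00129). With limma-voom precision weights the adjusted p was 0.101.

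Tgtp2 had 30, 13, 5 and 6 reads in cxC26 scr tumors 1 to 4, then 810, 42, 54 and 88 in cxC26 IL6KOs1 tumors 1 to 4, or 0.87, -0.26, -1.37 and -1.24 against 5.64, 1.62, 1.79 and 2.61 log2 CPM. Only 1 control tumor exceeded 1 CPM, so that the gene passed the filter through the knockout tumors. Its log2 fold change was 3.42 ± 0.79 (SE, limma adjusted p = 0.00541), and 2.51 without cxC26 IL6KOs1 tumor 1 (limma adjusted p = 0.00236). Its near copy Tgtp1 had 10, 11, 5 and 7 reads in the controls and 434, 8, 13 and 24 in the knockout tumors, did not pass the filter, and overlapped between the groups (exact two-sided permutation p = 0.0857, n = 4 per group). In the other 6 members the same exact test gave p = 0.0286, the smallest it can give with 4 tumors against 4.

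Reads could not always be assigned between these copies. Of all 150-base stretches of the Tgtp1 transcript, 71.3% occur in Tgtp2 as well, and 71.7% of those of Tgtp2 occur in Tgtp1, so that the split of reads between both is uncertain. Added together, Tgtp1 and Tgtp2 came to 40, 24, 10 and 13 reads in the controls and to 1244, 50, 67 and 112 in the knockout tumors, a log2 fold change of 2.98 (limma adjusted p = 0.0117). Of the other members, Igtp shares 0.9% of its stretches with Irgm2, and no stretch of the longest transcript of Irgm1, Iigp1 or Ifi47 occurs in another gene. The annotated exons of Igtp and Irgm2 also overlap by 162 bases on the same strand, 8.0% of those of Igtp and 4.4% of those of Irgm2.

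**Figure D2:**
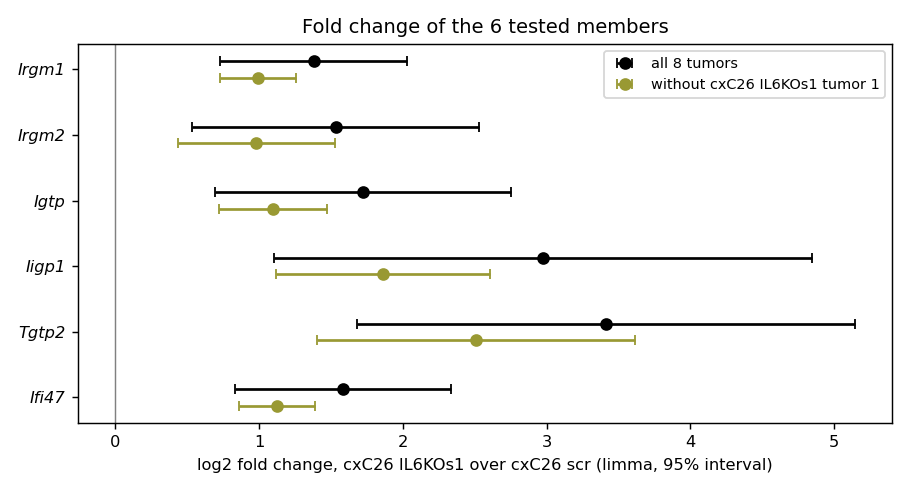
Log2 fold change of cxC26 IL6KOs1 over cxC26 scr with its 95% interval from limma, for the 6 tested members, with all 8 tumors (black) and without cxC26 IL6KOs1 tumor 1 (olive). All intervals lie above 0, and each point moves toward 0 without that tumor, from 2.98 to 1.86 in Iigp1 and from 1.38 to 0.99 in Irgm1.

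The members differed in how far cxC26 IL6KOs1 tumor 1 exceeded the mean of the other 3 knockout tumors. The excess on the log2 scale was 4.46 in Iigp1, 3.64 in Tgtp2, 2.49 in Igtp, 2.21 in Irgm2, 1.83 in Ifi47 and 1.55 in Irgm1, and 4.80 in Tgtp1, which was not among the tested genes. Over all tested genes the median excess was 0.002 and the 99th percentile 1.59. Among the 13262 tested genes, Iigp1 ranked 6 from the top, Tgtp2 19, Igtp 46, Irgm2 61, Ifi47 92 and Irgm1 140.

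Levels between members were compared per transcript length, in CPM per kilobase. In the cxC26 scr tumors the medians were 7.56 for Irgm1, 6.42 for Ifi47, 3.55 for Igtp, 1.33 for Irgm2, 0.882 for Iigp1, 0.212 for Tgtp2 and 0.187 for Tgtp1. Over the 4 tumors, the ranges of Irgm1, Ifi47, Igtp and Irgm2 did not overlap with each other. From Irgm2 down, each gene's range overlapped with that of the next. In cxC26 IL6KOs1 tumors 2 to 4 the medians were 15.1 for Irgm1, 14.5 for Ifi47, 7.94 for Igtp, 3.29 for Iigp1, 3.25 for Irgm2, 1.22 for Tgtp2 and 0.292 for Tgtp1. In that order the ranges of Irgm1 and Ifi47 overlapped, as did those of Iigp1 and Irgm2. In cxC26 IL6KOs1 tumor 1 the order changed: Iigp1 was highest at 71.0, ahead of Ifi47 at 50.5, Igtp at 45.3, Irgm1 at 44.7, Tgtp2 at 17.7, Irgm2 at 14.1 and Tgtp1 at 9.46.

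The GKS effectors made up 36.3%, 36.4%, 37.5% and 40.9% of the summed CPM per kilobase of the 7 members in cxC26 scr tumors 1 to 4, and 58.8%, 42.1%, 41.2% and 43.5% in cxC26 IL6KOs1 tumors 1 to 4. The groups did not overlap, but cxC26 scr tumor 4 and cxC26 IL6KOs1 tumor 3 lay close together. Iigp1 alone was 28.1% of the sum in cxC26 IL6KOs1 tumor 1, against 2.70% to 6.14% in the controls and 5.01% to 9.16% in the other knockout tumors.

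**Figure D3:**
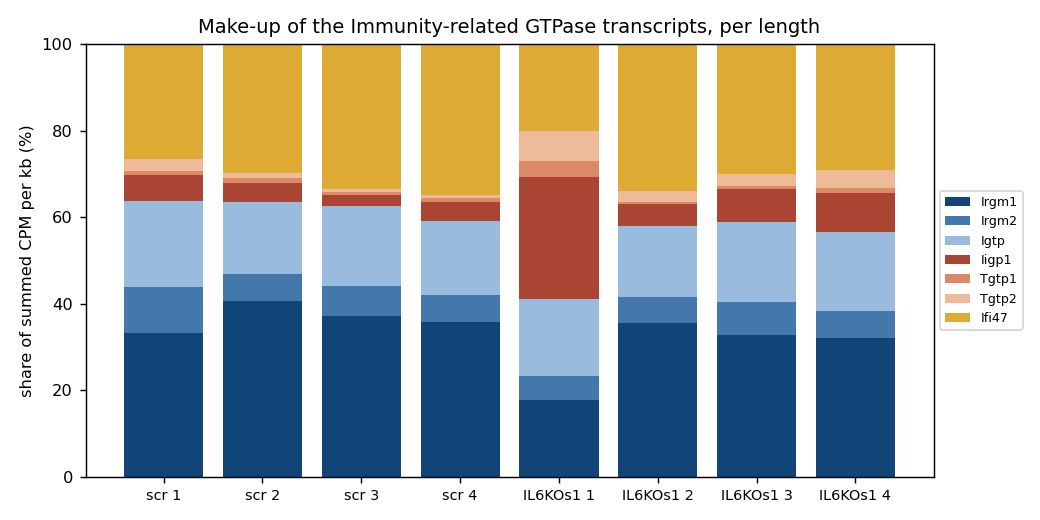
Share of each member in the summed CPM per kilobase of the 7 members, 1 bar per tumor, with GMS genes in blue, GKS genes of the Iigp1 and Tgtp type in red and Ifi47 in yellow. Irgm1 is the largest of the 7 shares in the 4 cxC26 scr tumors, where Iigp1 is at most 6.14%, and in cxC26 IL6KOs1 tumors 2 to 4, where Iigp1 is at most 9.16%. Only in cxC26 IL6KOs1 tumor 1 is Iigp1 the largest, at 28.1%.

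The table held 9 other genes of the family, of which 4 were tested. Gm12250, also known as Irgb10, an effector that acts with guanylate-binding proteins on bacteria, was at 18, 13, 9 and 5 reads in the controls and at 461, 31, 51 and 77 in the knockout tumors. Only 1 control tumor exceeded 1 CPM, so that this gene too passed the filter through the knockout tumors. Its log2 fold change was 3.08 ± 0.66 (SE, limma adjusted p = 0.00357), and 2.32 without cxC26 IL6KOs1 tumor 1 (limma adjusted p = 0.00142). Gm4951 was called higher, at a log2 fold change of 2.51 (limma adjusted p = 0.0215) and of 1.73 without cxC26 IL6KOs1 tumor 1 (limma adjusted p = 0.0340), although its groups overlapped. Gm4951 also exceeded 1 CPM in only 1 control tumor and passed the filter through the knockout tumors. It would not have passed without cxC26 IL6KOs1 tumor 1, so that its call without that tumor still rests on it. Gm5431, at 0.82, was not called (limma adjusted p = 0.182). Irgq, a distant relative, moved the other way, by -0.66 ± 0.14 (SE, limma adjusted p = 0.00351), and its groups did not overlap. Gm4841, F830016B08Rik, 9930111J21Rik1, 9930111J21Rik2 and Irgc1 did not pass the filter, and among these Gm4841 had 210 reads in cxC26 IL6KOs1 tumor 1, 1 to 6 in the other knockout tumors and 0 to 2 in the controls.

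The route from IFN-γ to these genes was measured next. Ifng itself had 33 reads in cxC26 IL6KOs1 tumor 1, then 0, 1 and 2 reads in the other 3 knockout tumors and none in the 4 controls, where the limit that a count of 0 allows is 3 reads a tumor, for counting error only. Of 14 genes of the signalling pathway, 13 were tested, 5 were higher and 1 was lower, with a median log2 fold change of 0.22, beside 19.1% higher and 20.7% lower among all tested genes. Ifngr1, the chain that binds the ligand, rose by 0.75 ± 0.10 on the log2 scale (SE, limma adjusted p = 0.000171), while Ifngr2, the signalling chain, was at -0.17 (limma adjusted p = 0.146). The kinase genes Jak1 and Jak2 were at 0.04 and -0.13 (limma adjusted p = 0.682 and 0.565).

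Irf1, an interferon regulatory factor that acts on ISRE elements, was at 7.43 in cxC26 IL6KOs1 tumor 1, but its other knockout tumors (5.47 to 5.97) overlapped with the controls (5.46 to 5.72), and its log2 fold change of 0.55 was not called (limma adjusted p = 0.194). Socs1, the feedback inhibitor, was at 0.22 (limma adjusted p = 0.172). The interferon regulatory factor genes Irf8 and Irf9 were called higher, and the phosphatase gene Ptpn11 lower, by -0.27 (limma adjusted p = 0.0165).

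The guanylate-binding proteins, large GTPases that load onto the same vacuoles, had 7 of 9 tested genes higher and 0 lower, with a median log2 fold change of 2.17. Without cxC26 IL6KOs1 tumor 1, 8 of 9 were higher (median 1.36). Among all tested genes 19.1% were higher, and 18.3% without that tumor. Gbp6, counted as higher, was under 1 CPM in every control and passed the filter only through the knockout tumors, which fixed its direction. With no filter on low values, 3 of 11 guanylate-binding proteins were called higher, beside 7.77% of all genes. Gbp2 was at 2.83 (limma adjusted p = 0.00872), Gbp3 at 2.17 (limma adjusted p = 0.0144), and Gbp7 at 1.38, not called (limma adjusted p = 0.0505). Without cxC26 IL6KOs1 tumor 1 they were at 1.88, 1.43 and 0.74, and Gbp7 was called (limma adjusted p = 0.0367). Of 12 other targets of IFN-γ, 11 were tested and 6 were higher, with a median of 1.33, beside the same 19.1% of all tested genes. Without cxC26 IL6KOs1 tumor 1 the median fell to 0.70 and 5 were called, beside 18.3%. Among these targets, the immunoproteasome subunit gene Psmb8 was at 1.33 and the peptide transporter gene Tap1 at 1.44 (limma adjusted p = 0.0104 and 0.00711), while Nlrc5, the activator of MHC class I genes, was at 0.34 (limma adjusted p = 0.442). Cxcl9, a target counted as higher, exceeded 1 CPM in only 1 control tumor and passed the filter through the knockout tumors.

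The list of 15 antiviral genes that type I interferon induces was set beside the members. All 15 were tested and called higher, with a median log2 fold change of 1.90, beside 19.1% of all tested genes. Without cxC26 IL6KOs1 tumor 1, 15 of 15 were called higher (median 1.99), beside 18.3%. Their summed level in cxC26 IL6KOs1 tumor 1, 288 CPM, lay within the 212 to 398 CPM of the other knockout tumors, and the controls were at 87.9 to 190 CPM. The summed members were at 629 CPM in that tumor and at 92.9 to 118 CPM in the other 3. Single genes of the list differed. In log2 CPM, Oas1a at 3.99 (other knockout tumors 3.07 to 3.87), Oasl2 at 4.80 (3.61 to 4.56) and Mx2 at 2.45 (1.58 to 2.38) were highest in cxC26 IL6KOs1 tumor 1. The rest of the list was not highest there, and Ifit2, Oasl1 and Rsad2 were lower there than in the other knockout tumors. Ifit2, an RNA-binding antiviral protein, was at 0.53, the transcription factor gene Irf7 at 2.00 and the ubiquitin-like modifier gene Isg15 at 1.46 (limma adjusted p = 0.0130, 0.00293 and 0.00220). The groups overlapped in Irf7 and Isg15, as they did in Oasl1, Rsad2 and Usp18. There cxC26 scr tumor 1 was the highest control, at 4.72 log2 CPM in Irf7 and 3.92 in Isg15, against 4.71 and 3.91 in cxC26 IL6KOs1 tumor 2.

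**Figure D4:**
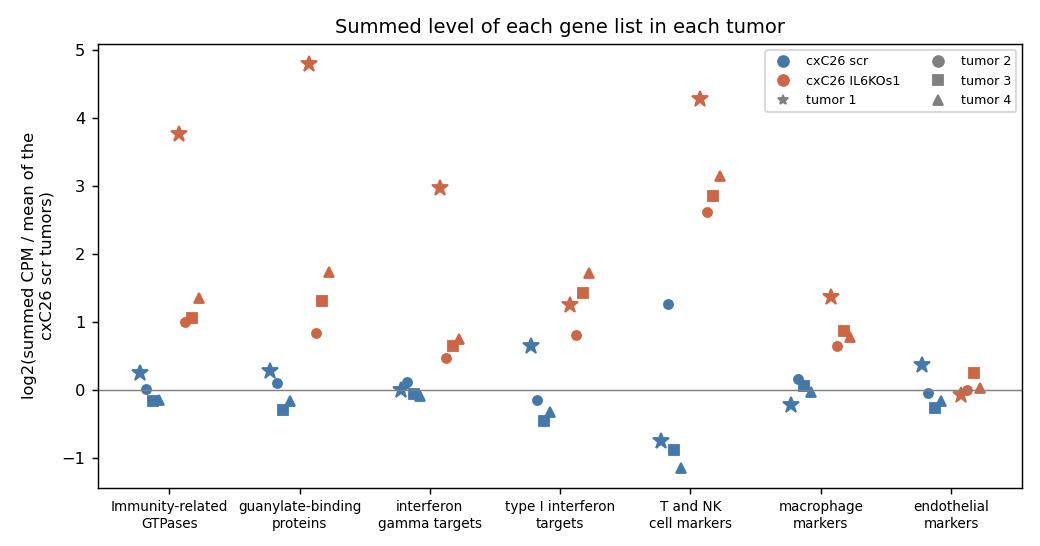
Summed CPM of each gene list in each tumor, as the log2 ratio to the mean of the 4 cxC26 scr tumors, with 1 symbol per tumor number. cxC26 IL6KOs1 tumor 1 (star) is highest in the members (629 CPM), guanylate-binding proteins (1026 CPM), IFN-γ targets (934 CPM), T and NK cell markers (52.9 CPM) and macrophage markers (1732 CPM), and lies among the other knockout tumors in the type I interferon targets (288 CPM).

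By the root mean square of the log2 difference to the mean profile of the 6 tested members over the 8 tumors, each profile centred on its own mean, genes most like the members included Gbp3 (0.272), Gbp5 (0.287), Psmb9 (0.295) and Zbp1 (0.338). The members themselves, which are part of that mean, ranged from 0.237 for Igtp to 0.831 for Tgtp2. Gbp5 is a guanylate-binding protein, Psmb9 an immunoproteasome subunit and Zbp1 a sensor of nucleic acids. All 8 points share their tumors and library depth, and the measure is a description.

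GKS proteins are loaded onto vacuoles with the help of the autophagy conjugation machinery. Of its 12 genes, 5 were higher (Atg3, Atg5, Map1lc3a, Map1lc3b and Gabarapl2) and 2 lower (Atg16l1 and Atg4b), with a median log2 fold change of 0.18, and both counts were the same without cxC26 IL6KOs1 tumor 1. Among all tested genes 19.1% were higher and 20.7% lower. Map1lc3b and Gabarapl2, which encode conjugated ubiquitin-like proteins, were at 0.42 and 0.26 (limma adjusted p = 0.00650 and 0.0223), and Gabarap at 0.09 (limma adjusted p = 0.503). Of 9 genes for ubiquitin ligases and adaptors that act at vacuoles, 8 were tested and 3 were higher, Trim21, Rnf213 and Optn, with a median of 0.16, beside the same 19.1% of all tested genes. Without cxC26 IL6KOs1 tumor 1 the number was 2. The adaptor genes Sqstm1, Tax1bp1 and Nbr1 were at 0.11, -0.002 and -0.23 (limma adjusted p = 0.530, 0.990 and 0.0689).

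The summed markers of T and NK cells, macrophages and leukocytes were also higher in the cxC26 IL6KOs1 tumors. Unlike the members, not every marker was highest in cxC26 IL6KOs1 tumor 1. In log2 CPM, Cd2 was at 0.59 there (other knockout tumors 0.58 to 0.92), Cd8b1 at 0.65 (0.25 to 1.17) and Mrc1 at 7.68 (7.75 to 8.22). Cd8a, Gzmb and Prf1 were highest there, the last 2 with 280 and 190 reads. The 11 T and NK cell markers summed to 1.62, 6.55, 1.48 and 1.23 CPM in the cxC26 scr tumors and 52.9, 16.7, 19.7 and 24.2 CPM in the cxC26 IL6KOs1 tumors. With no filter on low values, 8 of the 11 were called higher, beside 7.77% of all genes. With the filter 7 were tested and called higher, but Cd3g, Cd2, Cd8a, Cd8b1 and Nkg7 were under 1 CPM in every control and passed only through the knockout tumors, which fixed their direction, with Cd8a at 0, 3, 1 and 1 reads against 92, 26, 48 and 56. Cd2 and the granzyme gene Gzmb were at 2.98 and 3.11 (limma adjusted p = 0.000449 and 0.000761), and the perforin gene Prf1 at 3.02 (limma adjusted p = 0.0401). Prf1 overlapped between the groups and was the 1 marker that lost its call without cxC26 IL6KOs1 tumor 1 (2.14, limma adjusted p = 0.0959). Prf1 exceeded 1 CPM in only 1 control tumor and passed the filter through the knockout tumors, which it would not have done without cxC26 IL6KOs1 tumor 1. The 8 macrophage markers summed to 575 to 753 CPM in the controls, 1732 CPM in cxC26 IL6KOs1 tumor 1 and 1051 to 1223 CPM in the other knockout tumors, and 8 of 8 were called higher, with C1qa at 1.02, C1qc at 0.84 and Mrc1 at 0.52. All 5 general leukocyte genes were called higher too, with Ptprc at 1.03, Laptm5 at 0.98 and Coro1a at 1.30. Their sum was 152 to 181 CPM in the controls, 536 CPM in cxC26 IL6KOs1 tumor 1 and 260 to 345 CPM in the others. Beside these counts of immune cell markers with the filter, 19.1% of all tested genes were called higher.

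The endothelial markers summed to 99.4 to 154 CPM in the controls and 113 to 141 CPM in the knockout tumors, and the fibroblast markers to 7657 to 10180 and 5477 to 8605 CPM. B cell markers were at 1.02 to 2.11 CPM in the controls and 2.02 to 8.56 CPM in the knockout tumors, highest in cxC26 IL6KOs1 tumor 1. Epithelial markers were at 2.79 to 4.70 against 14.2 to 26.4 CPM. The part of these cell types in the members' differences was not tested.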

How the data were processed

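RNA of 8 whole mouse tumors, 4 per group by title, was sequenced from poly(A)-selected libraries. Per the study's methods and the labels, the authors demultiplexed with bcl2fastq 2.17, ran Trimmomatic on the reads, HISAT2 against mm10 and featureCounts for the genes, and deposited log2 CPM from limma-voom. Other versions, the annotation and the strand setting are not given in the sources used here. The deposited log2 values hold an offset of 0.5 reads and of 1 read in the library size, and whole reads were recovered from them for 100.0% of values (tolerance 0.01). The library sizes recovered differed from the totals of reads on genes (13854491 against 14397348 in cxC26 IL6KOs1 tumor 2), so the deposited values had been scaled between tumors, by a method not given in the sources used here. Tumors of a group came from separate mice.

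limma 3.58.1 (lmFit, eBayes with a mean-variance trend, R 4.3.3) was run on 13262 genes that reached 1 CPM in 4 or more tumors, two-sided, without covariates, with Benjamini-Hochberg adjustment over all tested genes and a threshold of 0.05. Tested on simulated reads for this comparison, it recovered 198 of 200 genes changed by 1 on the log2 scale among 13327 tested, with 9 false calls, and 200 of 200 changed by 2 among 13325. With no gene changed it made 0 calls among 13331, counted by limma only. The simulated reads had the same spread for every gene and no tumor that stood apart. These rates therefore do not carry over to genes such as the members, where cxC26 IL6KOs1 tumor 1 did. Members and lists were chosen with earlier results of these data known. Named genes were the members, the rest of the family, the targeted gene, 8 pathway genes, the 3 genes of highest mean in each other list, the 5 genes most like the members and markers, while members of a list that were called may be named beside its count. A gene that this rule names is not reported here. Lengths came from the longest GENCODE M21 transcript and promoters from RefSeq. Alternatives were other filters, scalings, weights, a pseudocount, a block and leaving out each tumor.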

Additional observations from a re-analysis of the deposited data

Results flagged for a closer look

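Of 86 sets of 4 values, 18 held a tumor far from the other 3, where chance gives about 1 in 20 if the sets are independent. They were not: Gbp5, Psmb9 and Zbp1 were named for their likeness to the members, and the summed lists hold genes that were also counted singly. Of these, 12 were high values of cxC26 IL6KOs1 tumor 1. In log2 CPM they were Irgm1 at 6.66 (others 4.99 to 5.24), Irgm2 at 5.61 (3.17 to 3.52), Igtp at 6.52 (3.81 to 4.27), Ifi47 at 6.49 (4.52 to 4.76), Jak2 at 7.43 (6.66 to 6.72), Gbp5 at 5.41 (1.58 to 2.22), Psmb9 at 6.39 (3.97 to 4.28) and Zbp1 at 5.45 (3.42 to 3.61). In summed CPM they were the members at 629 (92.9 to 118), the IFN-γ pathway at 1303 (867 to 913), the guanylate-binding proteins at 1026 (65.8 to 123) and the IFN-γ targets at 934 (166 to 201). Iigp1, Tgtp1 and Tgtp2, whose excess in that tumor was larger on the log2 scale, were not among them, since their other knockout tumors were spread more widely.

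The remaining 6 were in other tumors. Irgm2 was at 3.16 log2 CPM in cxC26 scr tumor 1 (others 2.07 to 2.24). Irf1 was at 5.46 in cxC26 scr tumor 3, below the others (5.68 to 5.72). Il6 was at 2.46 in cxC26 IL6KOs1 tumor 3 (others 1.99 to 2.04). The T and NK cell markers summed to 6.55 CPM in cxC26 scr tumor 2 (others 1.23 to 1.62). Gm4841 was at -2.62 in cxC26 scr tumor 4 and Irgc1 at -2.66 in cxC26 IL6KOs1 tumor 3, both from 2 reads where the other tumors of the group had none. The sets counted above left out other named genes, several of which the same rule flagged. In cxC26 IL6KOs1 tumor 1 they included Gbp2 at 7.94 log2 CPM (others 3.93 to 4.4) and Psmb8 at 7.57 (5.68 to 5.7). Prf1 at 3.55 (-0.102 to 0.0657) and Laptm5 at 6.86 (6.18 to 6.26) were also flagged there. In cxC26 scr tumor 1 they included Irf7 at 4.72 (2.52 to 2.84) and Isg15 at 3.92 (2.54 to 2.75).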

How the results depend on the processing

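Ifi47, Irgm1 and Tgtp2 stayed called higher under all 17 alternatives run for each, and no fold change of a tested member changed direction. The alternatives of Tgtp2 include its sum with Tgtp1 but not the stricter filter, which Tgtp2 did not pass. Outside the members, Nlrc5, not called, moved from 0.34 to -0.08 without cxC26 IL6KOs1 tumor 1. With no filter, the 27179 genes were all adjusted for, and 3 members were called rather than 6: Irgm2 (1.53, adjusted p = 0.0788), Igtp (1.72, adjusted p = 0.0598) and Iigp1 (2.98, adjusted p = 0.0740) lost the call in limma. The same setting left 3 genes higher in the IFN-γ pathway, 3 guanylate-binding proteins, 3 IFN-γ targets, 1 vacuole gene and 5 macrophage markers. With the stricter filter, of a mean of 3 log2 CPM, 4 members were tested and all 4 were higher, while Iigp1 and Tgtp2 could not be tested. Under that filter 0 other family genes (1 tested), 3 IFN-γ targets (5 tested) and 7 type I interferon targets (7 tested) were higher. No T and NK cell marker could be tested. With limma-voom precision weights Iigp1 was at 3.01 (adjusted p = 0.101), and 1 other family gene and 2 guanylate-binding proteins were higher. With 1 weight a tumor, 1 vacuole gene was lower.

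Leaving out each tumor in turn gave log2 fold changes of 1.13 to 1.78 for Ifi47, 1.10 to 2.00 for Igtp, 1.86 to 3.55 for Iigp1, 0.99 to 1.55 for Irgm1, 0.98 to 1.79 for Irgm2 and 2.51 to 3.87 for Tgtp2, each lowest without cxC26 IL6KOs1 tumor 1. Irgm2 lost its call without cxC26 scr tumor 3 (1.46) or 4 (1.42). Other family genes higher ranged from 1 to 2 (1 without cxC26 scr tumor 3 or cxC26 IL6KOs1 tumor 3), IFN-γ targets from 3 to 6 (3 without cxC26 scr tumor 3 or 4), vacuole genes higher from 1 to 3 (1 without cxC26 scr tumor 3 or 4 or cxC26 IL6KOs1 tumor 3 or 4) and lower from 0 to 1 (1 without cxC26 scr tumor 2), and pathway genes lower from 0 to 1 (0 without cxC26 IL6KOs1 tumor 3).

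Same-numbered tumors came from different mice and did not deviate together (correlations -0.059, 0.057, 0.017 and -0.059). With the number as a replicate block, 6 members were higher (Irgm1 at 1.38) and 1 vacuole gene was lower. The causes of these shifts were not tested. In the controls, 5 to 30 reads of Tgtp1 and Tgtp2 limit their precision.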
